A study of Homo sapiens with 18 samples.

Results

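The genes described here are 54 named genes of the mitotic spindle, the kinetochore, and the spindle checkpoint, out of 22034 genes in the count table of VCaP, a line of metastatic prostate cancer cells with the TMPRSS2:ERG gene fusion. They were matched to the table by Ensembl identifier, and all 54 passed the filter on low counts. The names were put together with earlier results of these data known, as genes that fall after ERG knockdown and hold or rise with PBITE-1, so their directions in those comparisons describe the list and are no independent evidence. RNA-seq was performed on ribosomal RNA-depleted total RNA from 18 samples in 6 groups of 3, which the study describes as biological replicates. VCaP-shERG cells, in which doxycycline (Dox) switches on a short hairpin RNA against ERG from the pLKO-Tet-on-puro vector, received vehicle, labelled DMSO, or Dox at 1 µg/mL. Parental VCaP cells, which lack the hairpin, received DMSO or 50 µM PBITE-1, a small molecule made to bind the PNT domain of ERG, for 4, 8, or 12 h. The question put to both experiments was which genes respond to loss of ERG and to the compound. The labels give no duration for Dox, and no Dox-treated line without the ERG hairpin was analysed here, so effects of Dox and of the hairpin cannot be told apart. The 3 times of PBITE-1 share the same DMSO samples, which carry no time, so treatment and time in culture cannot be told apart either.

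Mitosis begins when CDK1, bound to a B-type cyclin and activated by the CDC25 phosphatases, drives chromosome condensation and spindle assembly. Kinetochores assemble on centromeres and bind microtubules, and the spindle checkpoint holds back the anaphase-promoting complex until every chromosome is attached. Most of these genes are transcribed in the G2 and M phases, through the MuvB complex with B-MYB (MYBL2) and FOXM1, and their RNA is low in cells that have left the cycle.

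Totals ranged from 11308600 to 17483423 counts per sample, with the 3 Dox samples between 11750649 and 12613903 and their vehicle samples between 13223421 and 16202892. Expression is given as CPM (counts scaled to a common library size by TMM within each line), and fold changes on the log2 scale come from limma-voom on the 14164 genes that passed the filter. The coefficient of variation of the members across the 3 replicates had a median between 2.43% and 5.52% in the 6 groups. ERG, the target of the hairpin, was 448 ± 13.7 CPM (SD, n = 3) with vehicle and 164 ± 4.63 CPM with Dox. Parental cells with DMSO had 289 ± 8.85 CPM of ERG, and those with PBITE-1 had 179.9 ± 3.36 CPM at 4 h, 93.8 ± 2.94 CPM at 8 h, and 97.2 ± 7.66 CPM at 12 h. All 8 luminal markers of VCaP were expressed, with a summed level of 6980 to 7060 CPM with vehicle and 4230 to 4290 CPM with Dox, and of 4930 to 5080 CPM with DMSO and 2730 to 3280 CPM after 12 h of PBITE-1. The summed level of 4 fibroblast markers was 0.947 to 1.8 CPM with vehicle and 5.58 to 6.68 CPM with Dox, and 1.22 to 1.91 CPM with DMSO and 4.17 to 7.32 CPM after 12 h of PBITE-1. Nearly all of it was COL1A1, a collagen chain, while the other markers of the list, COL1A2, DCN, and PDGFRB, did not pass the filter. Summed leukocyte and endothelial markers stayed at or below 1.6 and 2.08 CPM, and PTPRC, CD3E, MS4A1, and CDH5 did not pass the filter. The luminal and the fibroblast sums moved with both treatments, and their part in the results was not tested.

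After Dox, 53 of the 54 members fell and none rose (limma-voom, adjusted p under 0.05), where 35.3% of all 14164 genes fell and 35.1% rose. For 49 members the fall was more than 1 on the log2 scale, a size that 7.19% of all genes reached downward. The median log2 fold change of the members was -1.25, against 0.02 for all genes, and the quartiles of the members were -1.38 and -1.16. The fall ran from -0.67 for BUB3, a checkpoint protein, to -1.79 for MYBL2, so that every member that fell did so by 1.59 to 3.46 times. NUSAP1, the member that did not pass the test, was almost undetected and is described last. In bulk RNA, fewer cells in G2 or mitosis and less of each RNA per cell cannot be told apart. On library size alone, without TMM, the median of all genes after Dox moved to 0.28 and that of the members to -0.99, and the same number of members, 53, fell.

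PBITE-1 did not move the members as a block. After 4 h, 18 members fell and 17 rose, against 24.7% and 26.4% of all genes, and on library size alone the split was 22 and 11. After 8 h, 19 fell and 19 rose, NUSAP1 among the latter, against 37% and 35.9% of all genes. After 12 h, 23 fell and 24 rose, and 39.4% of all genes fell and 39.4% rose. These shares are near those of all genes, and the median of the members was -0.01, -0.01, and -0.00 at the 3 times. Within 0.5 log2 units of DMSO lay 53, 40, and 39 of the 54 members at 4, 8, and 12 h, and 71.9%, 50.3%, and 40.1% of all genes. At 12 h 1 member, MYBL2, fell by more than 1 on the log2 scale, where 15.4% of all genes did, and CENPA rose by more than 1, where 17.1% did. NUSAP1 also passed that size and is among the 24 that rose, but its counts were too low for a fold change. Of the 53 members that fell after Dox, 23 were also lower at 12 h of PBITE-1, 7 did not pass the test, and 23 were higher. A description of the list as holding or rising with PBITE-1 therefore fits part of it, and 21 members fell after Dox without being lower at any of the 3 times. The share of all genes with these joint patterns was not counted, so the numbers describe the list only.

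**Figure D1:**
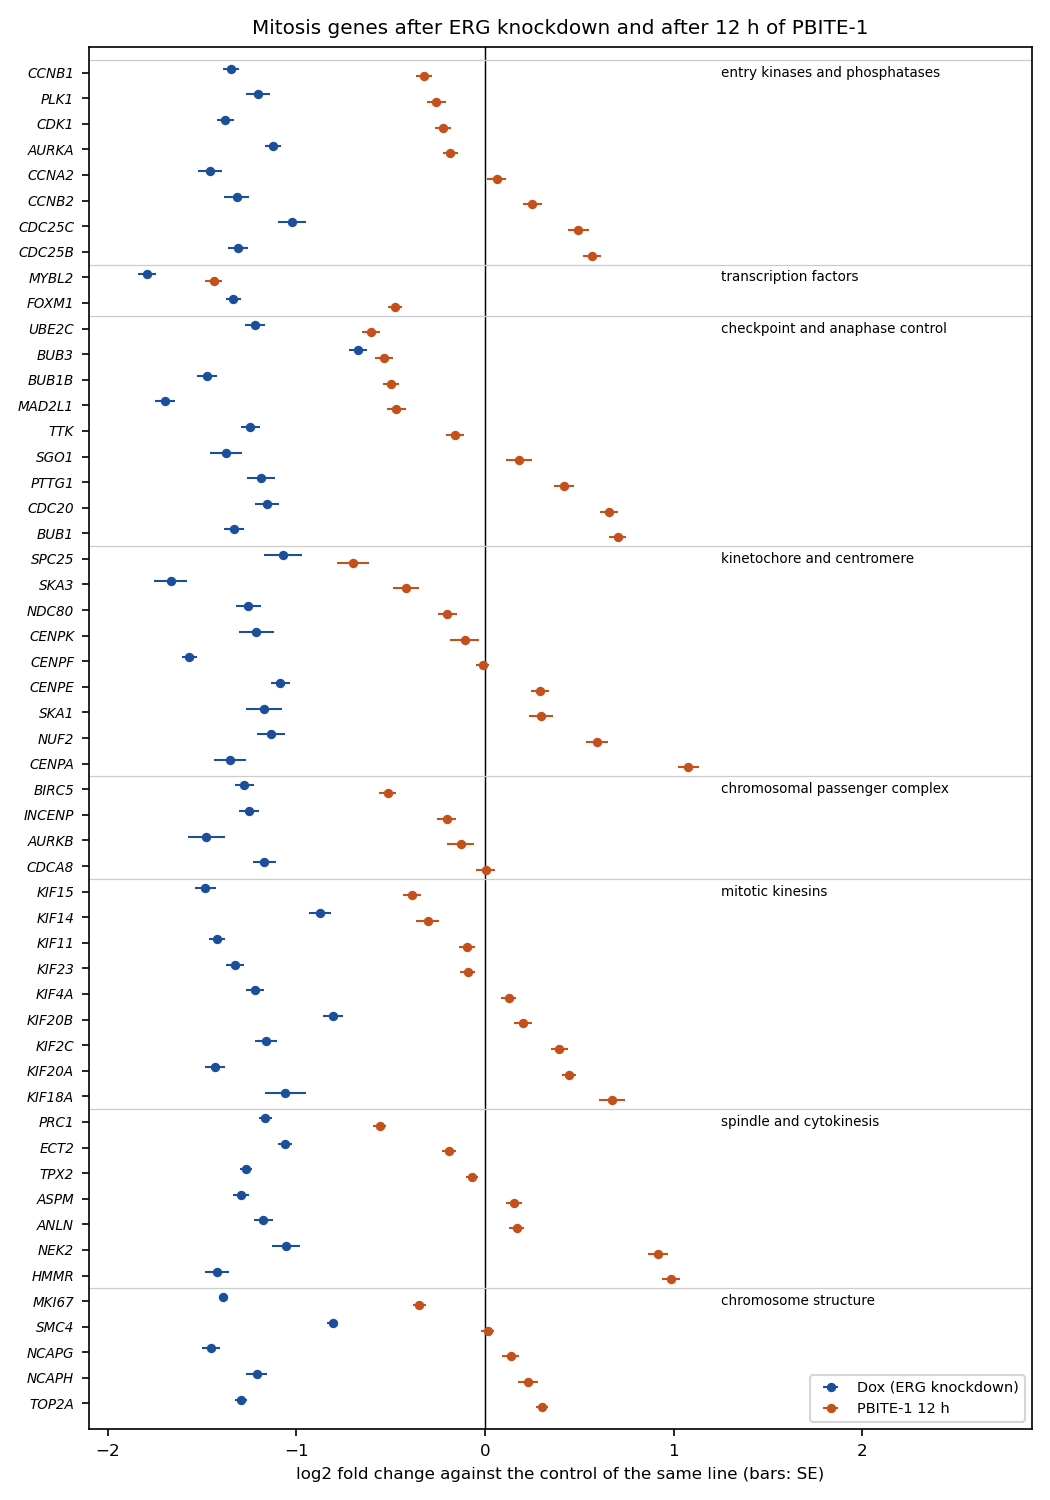
Log2 fold change of 53 members (rows, grouped by role) after Dox against vehicle in VCaP-shERG cells (blue) and after 12 h of PBITE-1 against DMSO in parental cells (orange). Points are limma-voom estimates and bars are SE. NUSAP1 is left out because of its low counts. All blue points lie between -1.79 and -0.67, while the orange points lie on both sides of 0, from -1.44 for MYBL2 to 1.08 for CENPA.

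The promoters of the members were searched because the genes fell together after Dox and split with PBITE-1. RefSeq promoters (250 bases before to 50 after each start, GRCh38.p14) were found for 47 of the 54 members and 10946 tested genes, and a gene was counted if any of its promoters held the motif on either strand. The NF-Y box CCAAT was present in 74.5% of the members, 43.5% of the tested genes, and 39.7% of all 27305 genes with a promoter. The CHR, the cell cycle homology region through which MuvB binds (TTTGAA or TTCGAA), was present in 76.6% of the members, 15.3% of the tested genes, and 19.5% of all genes. Both motifs stood in the same promoter in 57.4% of the members and in 6.53% of the tested genes. A strict E2F motif (GCGGGAA or TTTCCCGC, of which the second contains the reverse complement of the first) was present in 12.8% of the members, close to 12.7% of the tested genes. In 33 DNA replication genes, taken for comparison, the shares were 60.6% for CCAAT, 6.06% for CHR, and 45.5% for E2F. Among the members, the CHR was found in 88.2% of 17 that were lower at 12 h of PBITE-1 and in 75% of 24 that were higher. The 24 include NUSAP1, whose counts were too low for a fold change. CCAAT was found in 70.6% and 75%, and E2F in 5.88% (1 gene) and 20.8% (5 genes), and these differences were not tested. The 100 bases before the start are shown for 3 members that rose at 12 h (CDC20, HMMR, and CENPA), 2 that fell at all times measured (MKI67 and PRC1), and MYBL2, in 5′ to 3′ direction of the gene, with CCAAT and CHR matches of either strand in capitals.
CDC20 (chr1:43358881-43358980, plus strand): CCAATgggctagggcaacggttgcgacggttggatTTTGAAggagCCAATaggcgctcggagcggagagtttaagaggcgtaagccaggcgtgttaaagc
HMMR (chr5:163460532-163460631, plus strand): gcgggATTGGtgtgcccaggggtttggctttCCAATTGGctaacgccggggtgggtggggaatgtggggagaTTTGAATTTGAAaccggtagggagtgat
CENPA (chr2:26785956-26786055, plus strand): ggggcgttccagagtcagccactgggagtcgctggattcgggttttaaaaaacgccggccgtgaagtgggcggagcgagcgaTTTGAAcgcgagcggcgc
MKI67 (chr10:128126424-128126523, minus strand): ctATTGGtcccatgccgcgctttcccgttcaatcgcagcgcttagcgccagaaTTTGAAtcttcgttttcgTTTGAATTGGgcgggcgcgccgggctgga
PRC1 (chr15:90994536-90994635, minus strand): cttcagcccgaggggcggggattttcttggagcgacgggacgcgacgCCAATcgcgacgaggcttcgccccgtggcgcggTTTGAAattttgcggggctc
MYBL2 (chr20:43667014-43667113, plus strand): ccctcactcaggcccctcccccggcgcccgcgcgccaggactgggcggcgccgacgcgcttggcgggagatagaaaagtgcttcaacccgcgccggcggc
The windows were picked to show the motifs and are no sample of the members. The CHR began 65 bases before the start in CDC20, 18 in CENPA, and 20 in PRC1, whereas in BUB1, which rose at 12 h, and in MAD2L1, which fell, it lay after the start, at 2 and 25, with none in the 100 bases before it. CENPA also held CCAAT further upstream, at -205 and -130. MYBL2 had no match to the 3 motifs in its whole window of 300 bases. A match is a description of the sequence and not a measured site. The members were listed as genes of mitosis, most of them transcribed through MuvB. Their shares of CHR and CCAAT describe that list and are no response to Dox or PBITE-1.

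**Figure D2:**
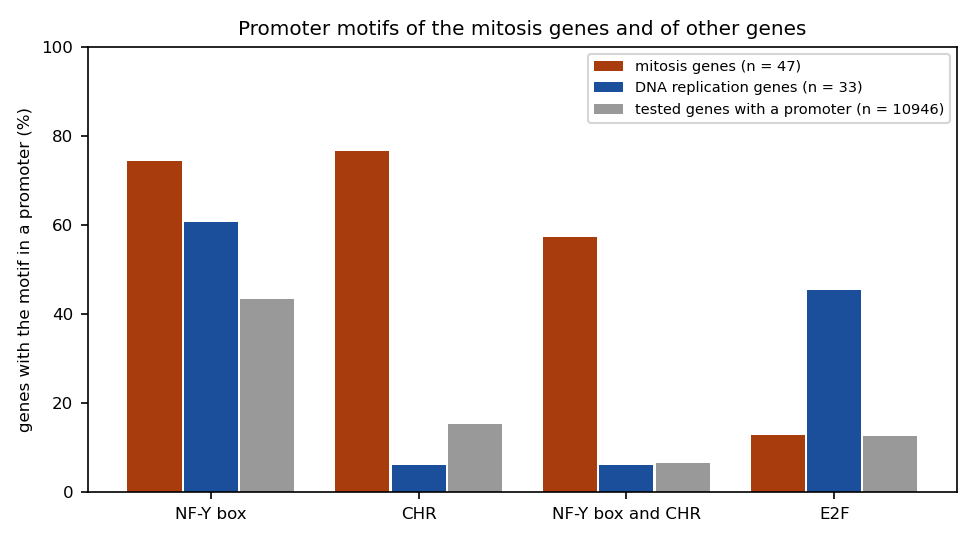
Share of genes, in percent, with each motif in a promoter, for 47 members (mitosis genes), 33 DNA replication genes, and 10946 tested genes with a promoter. The members stand out in the CHR, at 76.6% against 15.3% of the tested genes, and the DNA replication genes in E2F, at 45.5% against 12.7%.

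Of the 8 kinases, cyclins, and phosphatases that drive entry into mitosis, all 8 fell after Dox. With PBITE-1, 4 fell and 2 rose at 4 h and at 8 h, and 4 fell and 3 rose at 12 h. CCNB1 (cyclin B1) had 280.4, 272, and 257 CPM with vehicle and 99.3, 109, and 110.3 CPM with Dox. In parental cells its 3 DMSO samples had 339, 299, and 318 CPM, and the samples at 12 h of PBITE-1 had 254, 256, and 253 CPM. The groups did not overlap in either experiment, and the log2 fold changes were -1.35 (SE 0.04, limma adjusted p = 1.74e-19) after Dox and -0.32 (SE 0.04, adjusted p = 4.89e-09) at 12 h. CDK1, the kinase that cyclin B1 activates, turned with time. It had 233.5, 228, and 257 CPM with DMSO, 285, 267, and 261 CPM at 4 h, and 212, 204, and 200.3 CPM at 12 h, so that all 4 h samples were above and all 12 h samples below DMSO. PLK1 and AURKA, kinases of centrosome maturation and spindle assembly, were lower at all 3 times, with log2 fold changes of -0.21, -0.30, and -0.26 for PLK1 and -0.39, -0.45, and -0.18 for AURKA, against -1.20 and -1.12 after Dox. CDC25C, a phosphatase that activates CDK1, went the other way, with 54.7, 52.9, and 54.2 CPM with DMSO and 85.2, 88.0, and 84.7 CPM at 8 h. Its log2 fold change was 0.67 at 8 h (SE 0.06, adjusted p = 1.4e-13) and 0.50 at 12 h, but -1.02 after Dox. CDC25B rose by 0.57 on the log2 scale at 12 h and did not pass the test at 4 and 8 h.

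Both transcription factors of the G2/M program fell after Dox and at each time of PBITE-1. MYBL2 had 229, 221.5, and 211 CPM with vehicle and 66.1, 63.5, and 61.5 CPM with Dox, the largest fall among the members (log2 fold change -1.79, SE 0.05). In parental cells it had 244.5, 237, and 232.5 CPM with DMSO, 217, 219, and 212 CPM at 4 h, 214, 208, and 205 CPM at 8 h, and 86.2, 90.0, and 87.2 CPM at 12 h. The level thus came down little until 8 h and then by more than any other member, with a log2 fold change of -1.25 from 8 to 12 h (SE 0.05, adjusted p = 3.85e-24). FOXM1 was 284.4 ± 5.44 CPM with vehicle and 113 ± 4.61 CPM with Dox (SD, n = 3). It had 314, 310.2, and 303 CPM with DMSO, 252, 255, and 243.5 CPM at 8 h, and 226, 216, and 224 CPM at 12 h, each group below the one before. Its log2 fold changes were -0.12, -0.30, and -0.47 at the 3 times and -1.33 after Dox. FOXM1 overlaps ITFG2 on the opposite strand, and whether the counting used strand is not given in the sources used here.

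Of the 9 genes of the spindle checkpoint and of anaphase control, all 9 fell after Dox, and at 12 h of PBITE-1 5 fell and 4 rose. BUB1, a checkpoint kinase at the kinetochore, had 151, 148, and 139 CPM with vehicle and 56.3, 59.8, and 58.4 CPM with Dox. With DMSO it had 146, 131, and 131 CPM, and it had 165, 175, and 166.5 CPM at 4 h, 189.7, 200.4, and 190.3 CPM at 8 h, and 223, 215, and 225 CPM at 12 h. Every sample with PBITE-1 lay above every DMSO sample, and the log2 fold changes were 0.32, 0.51, and 0.71. CDC20, the activator of the anaphase-promoting complex that the checkpoint holds back, had 119, 109, and 113 CPM with DMSO, 113.5, 114, and 111 CPM at 4 h, and 195, 172, and 171 CPM at 12 h. It did not pass the test at 4 h (log2 fold change -0.01) and rose by 0.21 at 8 h and 0.66 at 12 h (SE 0.05, adjusted p = 2.35e-15), against -1.16 after Dox. A pseudogene of CDC20 is in the table, and how reads were split with it is not known. UBE2C, the ubiquitin-conjugating enzyme that serves the same complex, fell, with 139, 136, and 135 CPM with DMSO, 85.1, 85.3, and 84.9 CPM at 8 h, and 93.6, 90.0, and 86.6 CPM at 12 h. For UBE2C, 2 pseudogenes stand in the table as well. MAD2L1 (MAD2), which binds and inhibits CDC20, had 157, 159, and 154 CPM with vehicle and 45.1, 50.7, and 49.6 CPM with Dox. Its log2 fold change was -1.70 after Dox and -0.47 at 12 h of PBITE-1 (SE 0.05, adjusted p = 3.49e-11), and it did not pass the test at 4 and 8 h. BUB3 had the smallest fall of the members after Dox, -0.67 (SE 0.05), and fell by a like amount, -0.54 (SE 0.05), at 12 h of PBITE-1. PTTG1 (securin), which restrains separase until anaphase, was lower at 4 h (-0.15) and higher at 12 h (0.42).

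All 9 genes of the kinetochore and centromere fell after Dox. With PBITE-1, 1 fell and 4 rose at 4 h, 2 fell and 4 rose at 8 h, and 3 fell and 4 rose at 12 h. CENPA, the histone H3 variant that marks centromeres, had 40.5, 40.2, and 40.9 CPM with vehicle and 15.3, 17.6, and 14.9 CPM with Dox. With DMSO it had 40.5, 39.9, and 40.1 CPM. It had 34.1, 31.8, and 35.6 CPM at 4 h, 46.4, 45.6, and 44.4 CPM at 8 h, and 85.9, 84.7, and 83.8 CPM at 12 h. The 4 h samples were all below and the 12 h samples all above DMSO, with log2 fold changes of -0.25 and 1.08 (SE 0.06, adjusted p = 4.71e-20), the latter the largest rise of any member, NUSAP1 aside. CENPA shares 138 exonic bases with SLC35F6 on the same strand, and those reads cannot be told apart. CENPF, a large outer kinetochore protein, was 597 ± 24.6 CPM with vehicle and 202 ± 14.7 CPM with Dox, and 644.5 ± 25.6 CPM with DMSO and 639 ± 6.96 CPM at 12 h of PBITE-1 (SD, n = 3). Its log2 fold change was -1.57 after Dox, and at 12 h it was -0.01 (SE 0.04), a difference smaller than the spread of the replicates. Within the NDC80 complex, which holds the microtubule, NUF2 rose by 0.34, 0.53, and 0.59 at the 3 times, NDC80 did not pass the test at 4 and 8 h and fell by 0.20 at 12 h, and SPC25 fell by 0.53 at 8 h and 0.70 at 12 h. SPC25 had 33.1, 32.4, and 32.0 CPM with DMSO and 22.7, 18.5, and 19.2 CPM at 12 h. Of the SKA complex, which steadies that attachment, SKA1 rose by 0.38, 0.57, and 0.30 and SKA3 fell by 0.42 at 12 h, so subunits of one complex moved in opposite directions. After Dox the same 5 subunits lay between -1.67 and -1.07. SPC24 of the NDC80 complex and SKA2 of the SKA complex are not members. Both fell with PBITE-1, with log2 fold changes at 4 and 8 h of -0.82 and -1.56 for SPC24 and -0.27 and -0.37 for SKA2.

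The chromosomal passenger complex, whose kinase AURKB corrects faulty attachments, fell in all 4 of its subunits after Dox, with a median of -1.26. AURKB had 34.3, 34.0, and 37.4 CPM with vehicle and 11.9, 13.8, and 12.3 CPM with Dox (log2 fold change -1.48, SE 0.10). At 12 h of PBITE-1 it had 37.8, 34.7, and 33.1 CPM against 39.2, 39.5, and 36.4 CPM with DMSO. Those ranges overlapped, and AURKB did not pass the test (-0.13, adjusted p = 0.101). It was at 0.10 at 4 h, which did not pass, and rose by 0.23 at 8 h (SE 0.07, limma adjusted p = 0.00295). BIRC5 (survivin), the subunit that brings the complex to the centromere, fell at each time, with log2 fold changes of -0.30, -0.53, and -0.52, and INCENP, the scaffold, with -0.21, -0.48, and -0.20. CDCA8 (borealin) was lower at 4 h (-0.22) and was at 0.01 and 0.00 at 8 and 12 h.

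**Figure D3:**
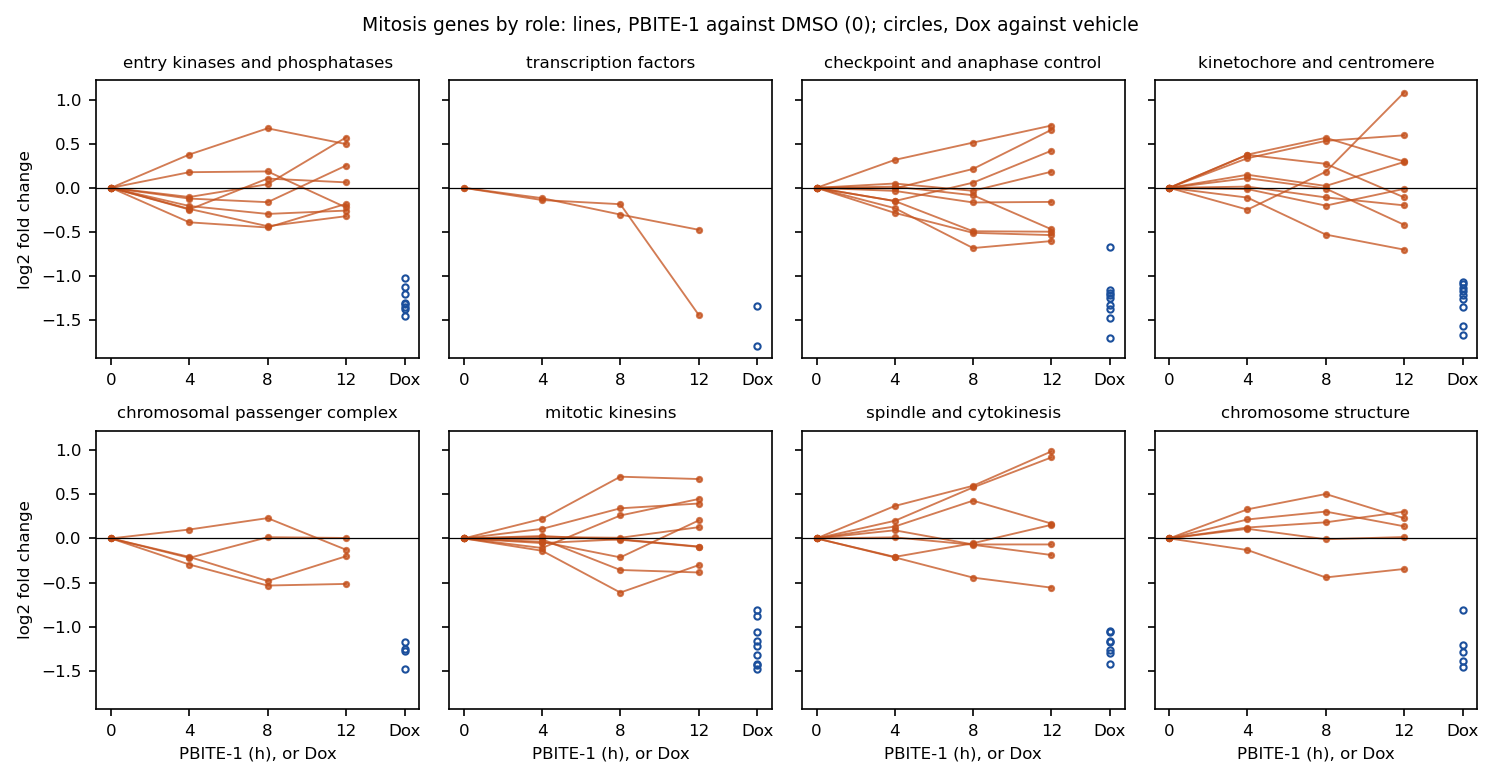
Log2 fold change of the members by role. Lines join the values after 4, 8, and 12 h of PBITE-1 against DMSO, which is 0 by definition, and open circles give the value after Dox against vehicle in the other line. NUSAP1 is left out. In each panel the lines fan out to both sides of 0 or below it, while every circle lies at -0.67 or lower.

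All 9 mitotic kinesins fell after Dox, from -0.81 for KIF20B to -1.48 for KIF15. At 12 h of PBITE-1, 4 fell and 5 rose. KIF11 (Eg5), which pushes the spindle poles apart, had 253, 244, and 239 CPM with vehicle and 88.2, 93.1, and 94.0 CPM with Dox. In parental cells it stayed near its DMSO level of 280.4 ± 16.7 CPM, with 262 ± 6.92 CPM at 12 h (SD, n = 3) and a log2 fold change of -0.10 (SE 0.04, adjusted p = 0.0388) that did not pass in several other settings, DESeq2 among them. KIF20A, a kinesin of the central spindle, had 265, 263, and 257 CPM with DMSO, 232, 245, and 250.3 CPM at 4 h, and 368, 341, and 361 CPM at 12 h. It was lower at 4 h (-0.11), higher at 8 h (0.26), and higher at 12 h (0.45, SE 0.04, adjusted p = 4.83e-13), after Dox -1.43. It overlaps BRD8 and CDC23 on the opposite strand. KIF18A, which dampens chromosome movements, had 38.3, 34.2, and 38.7 CPM with DMSO and 58.5, 62.2, and 59.8 CPM at 8 h, a log2 fold change of 0.70 (SE 0.07). KIF14, a kinesin of cytokinesis, went down at the same time, with 74.96, 73.7, and 82.7 CPM with DMSO and 49.5, 48.9, and 53.6 CPM at 8 h (log2 fold change -0.61, SE 0.06), and was at 68.5, 58.3, and 61.6 CPM at 12 h.

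Of the 8 other genes of the spindle and of cytokinesis, 7 fell after Dox. At 12 h of PBITE-1 2 fell and 5 rose, with NUSAP1 among the 5. HMMR, a microtubule-associated protein of the spindle poles, had 80.8, 85.7, and 76.6 CPM with vehicle and 29.9, 30.5, and 30.5 CPM with Dox. It had 79.6, 76.1, and 81.2 CPM with DMSO, 99.0, 103, and 103 CPM at 4 h, 115, 123.6, and 120.3 CPM at 8 h, and 159, 162, and 149 CPM at 12 h. Each later group lay above the one before, with log2 fold changes of 0.37, 0.60, and 0.98 (SE 0.05, adjusted p = 6.54e-21 at 12 h). NEK2, a centrosome kinase, took the same course, with 58.2, 56.2, and 62.2 CPM with DMSO and 111, 113, and 109.6 CPM at 12 h (log2 fold change 0.92, SE 0.05). TPX2, which activates Aurora A on the spindle, was 456 ± 9.13 CPM with vehicle and 189.6 ± 6.76 CPM with Dox, and 577 ± 15.3 CPM with DMSO and 551 ± 23.4 CPM at 12 h (SD, n = 3). At 12 h it did not pass the test (-0.07, adjusted p = 0.0661). PRC1, the microtubule bundler of the central spindle, fell at each time, with 454, 449, and 447 CPM with DMSO and 318, 293, and 306 CPM at 12 h (log2 fold change -0.56, SE 0.04). ANLN (anillin), a scaffold of the contractile ring, rose at each time and most at 8 h, by 0.13, 0.43, and 0.17, against -1.17 after Dox.

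All 5 genes of chromosome structure fell after Dox, and at 12 h of PBITE-1 1 fell and 3 rose. MKI67 (Ki-67), the coat protein of mitotic chromosomes and a marker of cycling cells, had 1089, 1076, and 1066 CPM with vehicle and 401, 419, and 417 CPM with Dox. It had 1085, 1107, and 1132 CPM with DMSO, 816, 821, and 810.4 CPM at 8 h, and 874, 834, and 909 CPM at 12 h. All samples at 8 and 12 h were below DMSO, with log2 fold changes of -0.44 and -0.35 (SE 0.03, adjusted p = 2.19e-12 at 12 h), a smaller fall than the -1.39 (SE 0.03) after Dox. TOP2A, the topoisomerase that untangles sister chromatids, had 1552, 1459, and 1614 CPM with DMSO and 1888, 1896, and 1916 CPM at 12 h, a log2 fold change of 0.30 (SE 0.03), against -1.29 after Dox. Thus MKI67 and TOP2A, both widely read as measures of proliferation, fell together after Dox and moved in opposite directions with PBITE-1. SMC4, the core subunit of condensin, was 686 ± 20.4 CPM with DMSO and 693 ± 21.9 CPM at 12 h (SD, n = 3), and its log2 fold change was 0.02 (SE 0.03). The condensin subunits NCAPG and NCAPH rose by 0.14 and 0.23 at 12 h. Per kilobase of exon, the DMSO level was highest for TOP2A, at 251 CPM, followed by TPX2 at 168 and CCNB1 at 131 CPM, and lowest, NUSAP1 aside, for CENPK at 7.81 and KIF18A at 8.33 CPM.

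**Figure D4:**
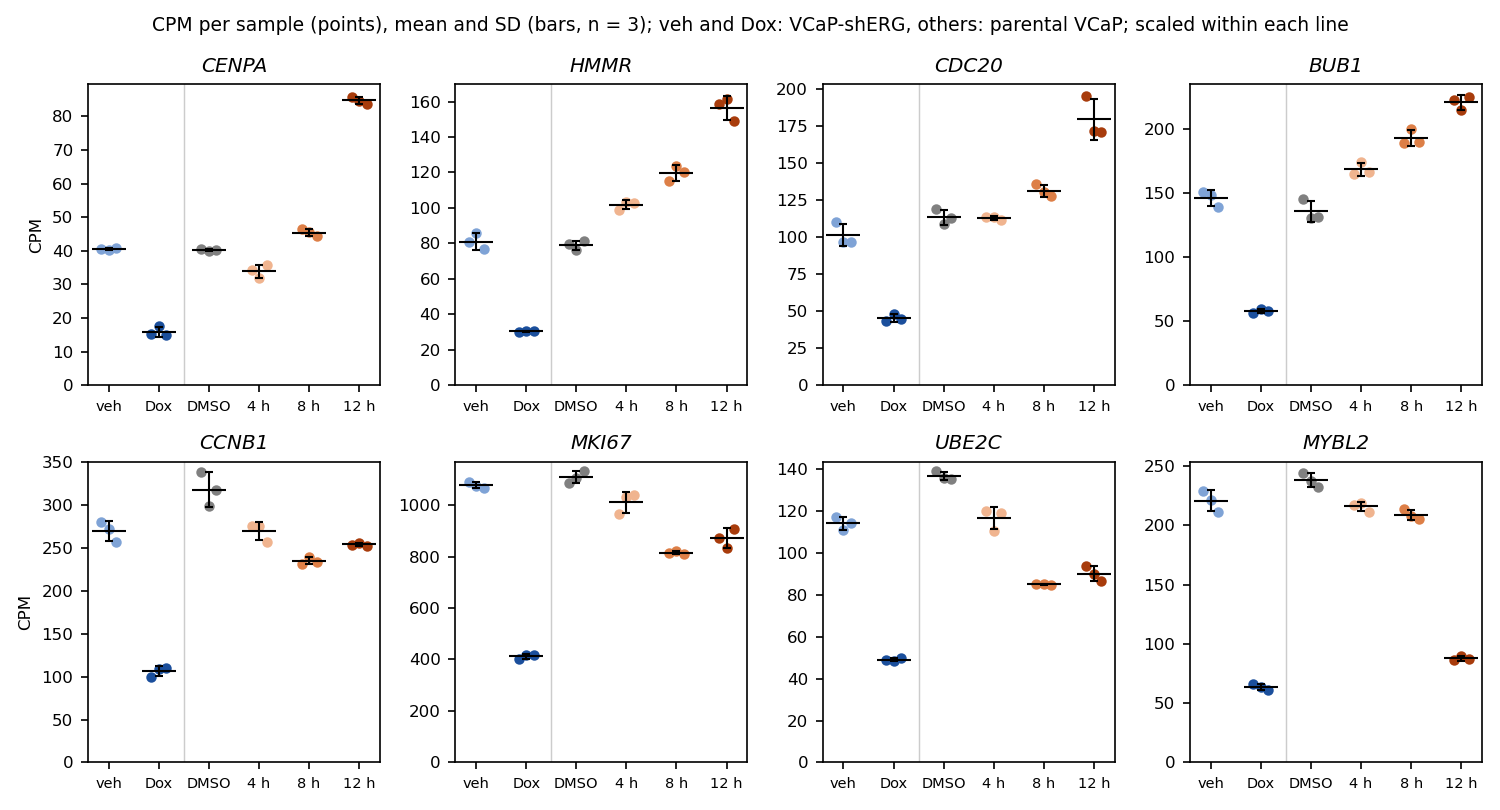
CPM of 8 members in every sample (points), with the mean and SD of 3 samples (bars). Vehicle (veh) and Dox are VCaP-shERG samples, the others are parental VCaP samples with DMSO or after 4, 8, and 12 h of PBITE-1, and CPM are scaled within each line. In all 8 genes the Dox samples lie below the vehicle samples. CENPA, HMMR, CDC20, and BUB1 end above DMSO at 12 h, CCNB1, MKI67, and UBE2C end below it but above the Dox level, and MYBL2 falls to 86.2 to 90.0 CPM.

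The difference between the 2 responses was tested in a fit of all 18 samples, as the change at 12 h of PBITE-1 minus the change after Dox. It was positive in 52 members and negative in none (limma-voom, adjusted p under 0.05), where 33.3% of all genes were positive and 35.1% negative, with a median of 1.20 for the members and -0.02 for all genes. The members were listed for falling after Dox and holding or rising with PBITE-1, so this direction describes the list and is no independent evidence. For 37 members the difference was past 1 on the log2 scale, as for 13% of all genes. The widest differences were those of CENPA (2.39, SE 0.10), HMMR (2.36, SE 0.08), and BUB1 (1.99, SE 0.07), which fell after Dox and rose with PBITE-1. BUB3 (0.10, SE 0.07, adjusted p = 0.201) and NUSAP1 did not pass the test, and on library size alone, which moved the median of all genes to -0.28, BUB3 was at -0.16 (adjusted p = 0.024). MYBL2 had one of the smallest differences that passed (0.31, SE 0.06, adjusted p = 4.26e-05), and on library size alone it was 0.05 and no longer passed. Dox and PBITE-1 were given to different lines and against different control samples, so agent and line cannot be told apart in this difference.

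Untreated levels also differed between the lines. With vehicle, VCaP-shERG cells had lower levels than parental cells with DMSO in 42 members and higher levels in none, where 23.3% of all genes were lower and 23.3% higher. The median of this difference was -0.28, and SKA1 (-0.62, SE 0.07), BIRC5 (-0.52, SE 0.04), and TPX2 (-0.51, SE 0.03) were among those further apart. BUB1 (-0.06, adjusted p = 0.321) did not pass the test. The differences between the lines were smaller than the fall after Dox, whose median was -1.25.

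Between the times of PBITE-1, the members kept moving both ways. From 4 to 8 h 19 fell and 19 rose, against 26.3% and 26.7% of all genes, and from 8 to 12 h 14 fell and 21 rose, against 32.5% and 27.8%. Over the whole span from 4 to 12 h, 22 fell and 21 rose, against 35% and 35% of all genes. NUSAP1 is among those that rose from 4 to 8 h and from 4 to 12 h. CENPA (1.33, SE 0.06), NEK2 (0.72, SE 0.05), CDC20 (0.66, SE 0.05), and HMMR (0.62, SE 0.05) rose between 4 and 12 h, while MYBL2 (-1.30, SE 0.05), SPC25 (-0.59, SE 0.09), and SKA3 (-0.53, SE 0.07) fell.

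The rest of the mitotic machinery was followed in 93 further genes. They too were listed with earlier results of these data known, so their counts describe these lists. After Dox 78 of them fell and 3 rose, with a median of -1.04, against 35.3% and 35.1% of all genes. The fall reached all 20 further genes of the spindle, of kinesins, and of cytokinesis. It also reached all 10 of a list of mostly CDK1 regulators, which also holds GAS2L3. At 12 h of PBITE-1 49 fell and 25 rose, with a median of -0.16, against 39.4% of all genes in each direction. A list of 13 genes of the anaphase-promoting complex, which includes its coactivator FZR1, its inhibitor FBXO5, and its conjugating enzyme UBE2S beside the subunits, had 8 genes lower and 1 higher after Dox. A list of 12 genes of DREAM and MuvB, which includes the kinase DYRK1A, had 6 lower and 2 higher. Their medians after Dox were -0.41 and -0.26. The lowest of the further genes at 12 h were CDC25A, the phosphatase that acts early in the cycle (log2 fold change -2.27 at 12 h and -1.52 after Dox), and KIF22, a kinesin that moves chromosome arms (-2.26 and -1.09). KIF22 had 226, 229.8, and 208 CPM with DMSO and 47.2, 43.4, and 47.5 CPM at 12 h. In the other direction GAS2L3, a cytoskeletal linker of cytokinesis, was 104.8 ± 5.01 CPM with DMSO and 305 ± 9.67 CPM at 12 h (SD, n = 3), a log2 fold change of 1.54 (SE 0.05), against -0.56 after Dox. LIN37, a subunit of MuvB, rose by 1.96 (SE 0.22) at 12 h from 1.77 to 3.20 CPM with DMSO. After Dox the deepest falls were those of CENPM, a centromere protein (-1.70), and CDCA5 (sororin), which protects cohesion (-1.63). ANAPC4, a subunit of the anaphase-promoting complex (0.68), and RBL2, the pocket protein of the DREAM repressor complex (0.57), rose after Dox, and at 12 h of PBITE-1 RBL2 fell by 0.42.

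DNA replication genes, which act in S phase, are given for comparison. After Dox all 38 fell, with a median of -1.44, as the mitosis genes did, where 35.3% of all genes fell. At 12 h of PBITE-1 34 of the 38 fell and 1 rose, with a median of -1.29, against 39.4% of all genes in each direction. The members had a median of -0.00 with 23 lower and 24 higher. At 4 h 15 replication genes fell and 7 rose, against 24.7% and 26.4% of all genes. At 8 h 25 fell and 8 rose, against 37% and 35.9%. The difference between the 2 responses was positive in 14 and negative in 13 replication genes, with a median of 0.04. These counts are near the shares of all genes, 33.3% positive and 35.1% negative. Of the 54 members, 52 were positive and 0 negative, with a median of 1.20. The 2 lists are given side by side, and the difference between them was not tested. The members were listed for unlike responses to Dox and PBITE-1, so their side of this contrast follows from the choice of genes. The replication genes were also listed with earlier results of these data known, so neither side is independent evidence.

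NUSAP1, a microtubule-bundling protein, was listed with 0 to 5 counts in every sample with vehicle, Dox, or DMSO and at 4 h of PBITE-1, with 6 to 13 counts at 8 h, and with 10 or 11 counts at 12 h. Most control samples lay at or under 3 counts, the level below which a count was not told from 0, so no fold change is given. The gene AC087721.2 (chromosome 15, 41284013 to 41380743 in GENCODE release 29) spans NUSAP1 (41332694 to 41381050) on the same strand and shares 1787 exonic bases with it. It had 84 to 253 counts per sample, and reads from the shared exons cannot be told apart. The count of NUSAP1 is thus no measure of its RNA here, and without it 53 of 53 members fell after Dox and 23 fell and 23 rose at 12 h of PBITE-1.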

How the data were processed

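RNA-seq of 18 VCaP samples was analysed from the deposited table of raw counts per gene, which is not normalized. The submitters' processing notes name STAR, featureCounts, and hg38 without versions, whereas the study's methods name Kallisto, edgeR, and limma-voom. Which of these made the table, and its annotation and use of strand, are not given in the sources used here. Counts were whole numbers and were used as the authors deposited them. Of 22034 genes, 22011 were matched to a symbol. Genes were kept by filterByExpr over the 6 groups (14164 genes, 64.3%), scaled by TMM in edgeR 4.0.16, and modelled with limma 3.58.1 (voom weights, empirical Bayes, R 4.3.3), with Benjamini-Hochberg adjustment over all tested genes and a threshold of 0.05. VCaP-shERG samples (6) and parental samples (12) were fitted separately, and the difference between responses and between lines in a fit of all 18.

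The members and all gene lists were chosen with earlier results of these data known. Named genes are 18 anchors, 1 or more of each role, the 3 members with the lowest and the 3 with the highest log2 fold change past the threshold in each of 5 comparisons, and the 2 lowest and 2 highest further genes of mitosis after Dox and at 12 h. Other members with values (CDC25B, PTTG1, NUF2, INCENP, CDCA8, KIF15, KIF20B, NEK2, PRC1, ASPM, SMC4, NCAPG, and NCAPH) were named after their values were seen. So were SPC24 and SKA2, which belong to the further genes of mitosis. Replicates of a group differed by more than sampling noise (chi-square per degree of freedom 1.705 to 5.177). The limma p-values set each difference between groups against the spread between replicates of these samples only, moderated over genes by empirical Bayes. Scaling by TMM assumes that most genes do not change. As alternatives, the quasi-likelihood test of edgeR and DESeq2 1.42.0 were run, with RLE, upper-quartile, and library-size scaling, other filters (21560 and 11807 genes), other sample sets, quality weights, a replicate block, and leaving out each sample. The scripts were tested on simulated data. Exon lengths and gene positions are from GENCODE release 29.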

Additional observations from a re-analysis of the deposited data

Results flagged for a closer look

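For 5 members, the log2 fold changes at 4 h and at 12 h of PBITE-1 against DMSO each passed the test with opposite signs, and the change between these times was itself past the threshold (limma-voom, 12 h against 4 h). The share of all genes that meet this rule was not counted, so the 5 are not set against other genes. CDK1 went from 0.18 to -0.22, a change of -0.40 (SE 0.04, adjusted p = 3.62e-10). CENPA went from -0.25 to 1.08, a change of 1.33 (SE 0.06, adjusted p = 4.4e-21), PTTG1 from -0.15 to 0.42, a change of 0.57 (SE 0.06, adjusted p = 2.02e-11), KIF20A from -0.11 to 0.45, a change of 0.55 (SE 0.04, adjusted p = 4.4e-15), and ASPM, a spindle pole protein, from -0.21 to 0.15, a change of 0.36 (SE 0.05, adjusted p = 5.36e-09). The 12 h against 4 h change does not take the DMSO samples as its reference, although they are part of the fit that gave its SE and p-value. In CDK1 all 3 samples at 12 h were below all 3 at 4 h, and in the other 4 genes all 3 were above. The fall of KIF20A at 4 h did not pass without DMSO replicate 1 (-0.10), without DMSO replicate 2 (-0.10), or without 4 h replicate 1 (-0.08).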

How the results depend on the processing

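Of the counts of members that fell or rose, those after Dox stayed at 53 and 0 under every alternative test, scaling, filter, and sample set, apart from the threshold on size, with which 49 fell. With that threshold (a log2 fold change above 1) added, the counts lower and higher were 0 and 0 at 4 h, 0 and 1 at 8 h, 1 and 2 at 12 h, 0 and 1 from 4 to 8 h, 1 and 0 from 8 to 12 h, 1 and 2 from 4 to 12 h, 0 lower between the untreated lines, and 37 positive differences between the responses in place of 52. Without NUSAP1, whose counts are too low for a fold change, 0 were higher at 8 h and from 4 to 8 h. At 12 h and from 4 to 12 h, 1 was. Library size alone gave 11 higher at 4 h in place of 17, and 1 negative difference between the responses in place of 0, that of BUB3, which turned from 0.10 to -0.16. DESeq2 and RLE scaling each gave 1 member higher in VCaP-shERG cells than in parental cells in place of 0. Leaving out each sample in turn gave 53 lower after Dox, 16 to 20 lower and 14 to 17 higher at 4 h, 19 to 22 and 19 to 20 at 8 h, 21 to 24 and 22 to 24 at 12 h, 51 to 53 positive differences between the responses, 37 to 42 lower between the lines, and -1.47 to -1.42 for ERG after Dox (-1.18 on library size alone). Replicate numbers did not pair the samples, since the correlations of same-numbered samples lay between -0.03 and 0.05. With the replicate number as a block, 53 fell after Dox, 19 fell and 17 rose at 4 h, 19 and 20 at 8 h, and 24 and 24 at 12 h. Over 39 named genes, 3732 of 3810 values kept their direction and side of the threshold, 35 no longer passed, 42 newly passed, and 1, that of BUB3, turned sign. The values that moved belonged to small changes, those of TPX2, KIF11, KIF14, KIF18A, and NDC80 with PBITE-1 and of SPC25 in the difference between the responses among them, and the cause was not tested.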
